A study of Homo sapiens with 8 samples.

Results

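The high mobility group (HMG) genes examined here are the 10 genes HMGB1, HMGB2, HMGB3, HMGA1, HMGA2, HMGN1, HMGN2, HMGN3, HMGN4 and HMGN5, taken by gene symbol from the 28265 genes of the deposited count tables. RNA was sequenced with the factory RNA-seq protocol, which enriches nascent RNA attached to transcription sites. The cells were IMR90, a line of human fetal lung fibroblasts kept at low passage. The control group is wild-type IMR90, named young in the labels, and the treated groups are cells given inflachromene (ICM) for 3 days, cells given ICM for 6 days, and cells labelled MetaICM. Each of the 4 conditions has 2 libraries, and nothing in the labels states that they came from separate cultures, so p-values measure the spread between these libraries, which may be technical. What MetaICM treatment consisted of is not given in the sources used here, and its values are reported under that label only.

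HMG proteins are small, abundant, non-histone proteins that bind chromatin with little sequence preference. HMGB proteins carry paired HMG boxes that bend DNA, HMGA proteins use AT-hooks to bind the minor groove of AT-rich DNA, and HMGN proteins bind the nucleosome itself. ICM is a small molecule that binds HMGB1 and HMGB2, and loss of these proteins from the nucleus is a known mark of fibroblasts entering senescence. The comparisons therefore ask how transcription of the direct targets of ICM, and of their relatives on chromatin, stood at each time of treatment.

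The libraries held 12095123 to 23166405 counted read pairs, with a median of 18642269. Values are given as CPM, the read pairs of a gene on its exons scaled to a library of fixed size by TMM-scaled totals, or as RPKM, which is CPM per kilobase of exon, where genes are compared with each other. All 9 fibroblast markers had counts in every condition, with a summed level of 23126 to 23292 CPM in control, 12900 to 14278 CPM at 3 days, 10953 to 11322 CPM at 6 days and 20312 to 21212 CPM in MetaICM. The 5 leukocyte markers summed to 4.55 to 6.18 CPM in control, 17.0 to 21.4 CPM at 3 days, 18.0 to 20.8 CPM at 6 days and 13.2 to 13.4 CPM in MetaICM, with CD3E at 0 throughout. Nearly all of that sum was the macrophage and lysosome gene CD68, at 4.22 to 5.35 CPM in control and 12.7 to 20.5 CPM in the other libraries, while the other 4 markers together had 0.30 to 1.66 CPM in any library. The 5 epithelial markers summed to 58.9 to 86.0 CPM in control and 52.5 to 55.3 CPM in MetaICM. At 3 and 6 days they summed to 30.5 to 31.3 and 29.1 to 29.9 CPM. Nearly all of that sum was KRT18, with mean levels of 71.4 CPM in control and 52.2 CPM in MetaICM. The 5 endothelial markers summed to 130.4 to 234.0 CPM over the 8 libraries. Among them, VWF and KDR had means of at most 4.70 and 1.76 CPM, so other members made up most of the sum. Both were lower in MetaICM than at 6 days (2 of 3 tested, beside 12.0% of all genes). A list of 10 proliferation markers summed to 1854 to 1917 CPM in control, 186 to 198 CPM at 3 days, 164 to 167 CPM at 6 days and 1071 to 1075 CPM in MetaICM. Of these 10 genes, 9 were called lower by edgeR at 3 days and 9 at 6 days against control, beside 13.2% and 17.2% of all genes, and 9 were higher in MetaICM than at 6 days, beside 15.7%. The marker levels thus moved with the same conditions as several HMG genes, and their part in the HMG values was not tested. In bulk libraries of this kind, fewer cells expressing a gene and less RNA of it per cell cannot be told apart.

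A gene was called higher or lower when edgeR's quasi-likelihood test gave a Benjamini-Hochberg adjusted p-value under 0.05 and an absolute log2 fold change (log2FC) over 0.6. After 3 days of ICM, 5 of the 10 genes were lower than in control, namely HMGB1, HMGB2, HMGB3, HMGA2 and HMGN2, where 13.2% of all genes tested were called lower. None was called higher (8.85% of all genes), and DESeq2 also called 0 higher, while 1 gene, HMGN3, lay above control at an unadjusted p under 0.05, as 19.1% of all genes did. After 6 days, HMGB1, HMGB2, HMGB3 and HMGA2 were lower than in control, 4 of 10 beside 17.2% of all genes, and 1 gene, HMGN3, was higher, beside 13.3% of all genes. Between 6 and 3 days, edgeR and DESeq2 each called 0 of the 10 genes in either direction, beside 3.53% of all genes called higher and 4.54% called lower. At an unadjusted p under 0.05, 2 genes stood above and 1 below the 3-day level in that comparison, close to the 15.9% and 16.4% of all genes that did so. All 3 also had an adjusted p under 0.05, beside 19.3% of all genes.

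In MetaICM against control, 1 gene, HMGA1, was higher, beside 7.41% of all genes. None was called lower by edgeR or DESeq2, beside 8.99% of all genes, and 1 gene, HMGA2, lay below control at an unadjusted p under 0.05, as 20.4% of all genes did. Against 6 days of ICM, 6 of 10 genes were higher in MetaICM, namely HMGB1, HMGB2, HMGB3, HMGA1, HMGA2 and HMGN1, where 15.7% of all genes were called higher. None was called lower by edgeR or DESeq2, beside 12.0% of all genes, and 1 gene, HMGN3, lay below the 6-day level at an unadjusted p under 0.05, as 28.5% of all genes did. The median log2FC of the 10 genes was -0.46 at 3 days, -0.33 at 6 days and 0.068 in MetaICM against control, where the median over all genes tested was 0.0094, -0.0013 and -0.0011. Between MetaICM and 6 days it was 0.80, against 0.0069 over all genes. The comparisons with control share the control libraries, and those with 6 days share the 6-day libraries, so they are not independent of each other.

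**Figure D1:**
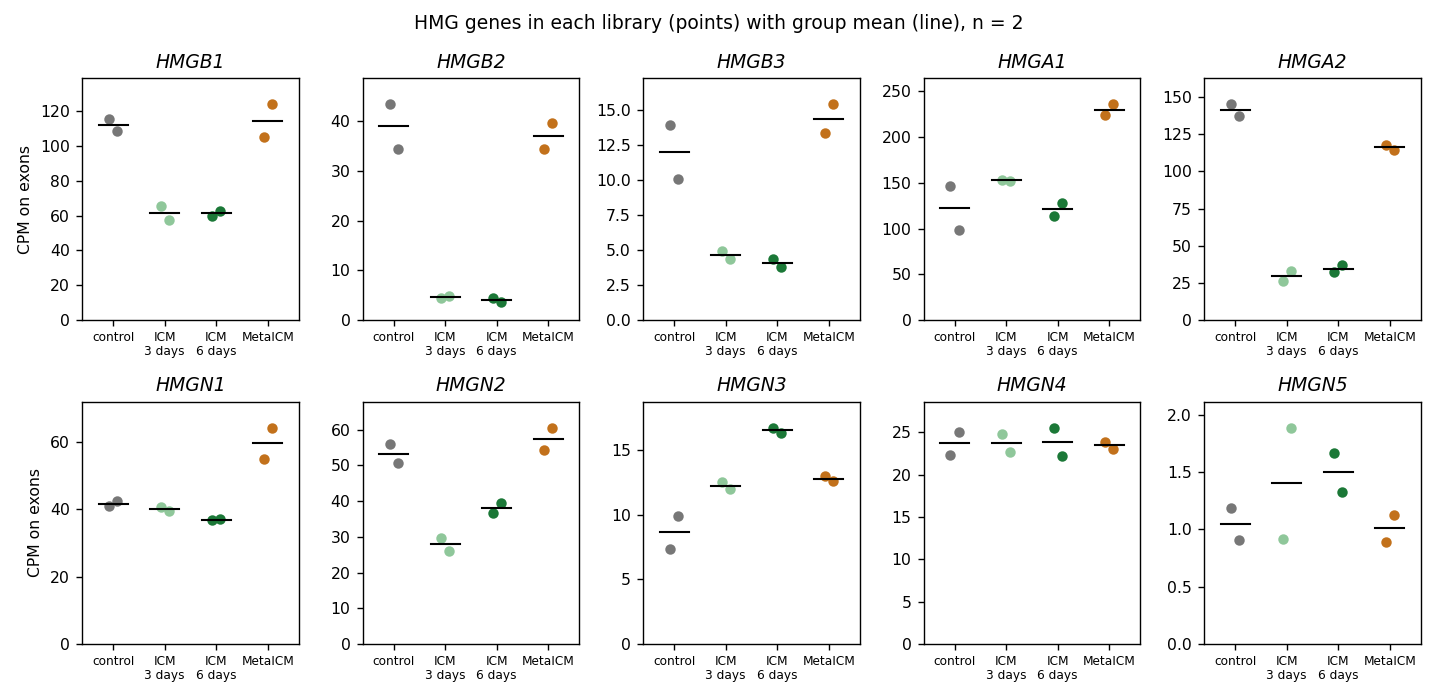
CPM on exons (vertical axis, from 0) of the 10 HMG genes in each of the 4 conditions (horizontal axis), with points for the 2 libraries and a line for their mean. HMGB2 sits between 34.4 and 43.5 CPM in control and between 3.72 and 4.85 CPM in the 4 ICM libraries, and HMGN4 stays between 22.2 and 25.6 CPM in all 8 libraries.

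Promoter windows were available for 8 of the 10 members in the RefSeq table (GRCh38.p14), in 12 windows from 250 bases before to 50 bases after a start, and HMGB2 and HMGA2 are named only. The windows were searched on both strands for CCAAT, the core of the NF-Y site, and for TTTGAA, a form of the cell-cycle homology element. The upstream 250 bases are shown for HMGB1, HMGB3 and HMGN2, which fell at 3 days, and for HMGN4, whose level hardly varied. Capitals mark each CCAAT or TTTGAA match on either strand. HMGB1 and HMGB3 have other windows in the table, and those shown hold the most CCAAT matches for their gene.
HMGB1, chr13:30465937-30466186, minus strand: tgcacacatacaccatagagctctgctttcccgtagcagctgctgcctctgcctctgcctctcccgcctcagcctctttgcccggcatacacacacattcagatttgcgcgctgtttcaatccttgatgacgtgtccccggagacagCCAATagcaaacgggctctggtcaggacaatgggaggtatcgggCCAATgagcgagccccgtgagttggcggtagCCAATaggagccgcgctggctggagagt
HMGB3, chrX:150983085-150983334, plus strand: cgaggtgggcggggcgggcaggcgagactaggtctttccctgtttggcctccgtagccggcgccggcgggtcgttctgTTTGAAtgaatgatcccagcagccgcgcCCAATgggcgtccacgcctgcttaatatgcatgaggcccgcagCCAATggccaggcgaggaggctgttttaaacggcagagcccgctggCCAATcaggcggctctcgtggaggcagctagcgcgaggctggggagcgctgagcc
HMGN2, chr1:26472190-26472439, plus strand: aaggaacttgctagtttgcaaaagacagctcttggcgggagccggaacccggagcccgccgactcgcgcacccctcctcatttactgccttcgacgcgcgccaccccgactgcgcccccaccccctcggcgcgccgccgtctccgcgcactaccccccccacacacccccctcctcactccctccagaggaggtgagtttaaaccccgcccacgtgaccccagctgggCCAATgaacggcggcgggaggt
HMGN4, chr6:26538116-26538365, plus strand: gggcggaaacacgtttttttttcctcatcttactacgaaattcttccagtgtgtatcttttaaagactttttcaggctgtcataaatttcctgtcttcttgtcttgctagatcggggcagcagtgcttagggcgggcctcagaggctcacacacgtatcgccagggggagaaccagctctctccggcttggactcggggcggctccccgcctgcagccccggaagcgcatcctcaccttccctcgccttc

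The window of HMGB1 shown held CCAAT starting 103, 59 and 28 bases before the start, and that of HMGB3 held it 144, 101 and 55 bases before the start. HMGB3 also held TTTGAA 172 bases before its start, and HMGN2 held 1 CCAAT 22 bases before its start. HMGN4 held neither motif. Over all members, CCAAT was found in 8 of 12 windows, which belong to 6 genes (HMGA1, HMGB1, HMGB3, HMGN1, HMGN2 and HMGN3), beside 34.6% of the 35116 windows of the table. TTTGAA was in 2 of 12 windows, of HMGB1 and HMGB3, close to the 15.2% of all windows. The genes with CCAAT thus include HMGN3, which rose at 6 days, and HMGN1, which was not called against control. The Sp1-type GC box GGGCGG was in 8 of 12 windows beside 45.0% of all windows, and the E-box CACGTG was in 1 of 12, of HMGN2, beside 7.26%. The E2F forms TTTCCCGC, TTTGGCGC, TTTCGCGC and TTTGCCGC, the element TTCGAA and the AP-1 form TGANTCA were in 0 member windows, beside 0.52% to 7.71% of all windows. A match describes the letters of these windows and says nothing of binding.

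The promoter window shown for HMGB1, the founding HMGB gene, held 3 CCAAT matches, the most among its windows. The gene encodes a nuclear DNA-bending protein that also acts as an alarmin once released from cells. Its 8 exon blocks span chr13:31030841-31191734 on the minus strand (GRCh37). The gene had 115 and 109 CPM in the control libraries, 65.2 and 57.7 CPM after 3 days, 59.8 and 62.9 CPM after 6 days, and 105 and 124 CPM in MetaICM. Every ICM library was below every control library, the 3-day and 6-day libraries overlapped, and so did MetaICM and control. HMGB1 fell at 3 days with a log2FC of -0.87 ± 0.13 (SE, n = 2 per group, edgeR adjusted p = 3.80e-04), which is 1.82-fold. The fall was of the same size at 6 days, at -0.87 ± 0.11 (edgeR adjusted p = 1.54e-04), and the 95% interval of the difference between 6 and 3 days ran from -0.22 to 0.20. In MetaICM, HMGB1 was 1.87-fold higher than at 6 days (log2FC 0.90 ± 0.083, edgeR adjusted p = 8.97e-09). Its difference from control there was 0.029, with a 95% interval from -0.23 to 0.29.

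HMGB2, a close relative expressed mainly in dividing cells, showed the largest log2FC of the 10 genes in each comparison in which it was called. It is a short gene of 5 exon blocks at chr4:174252527-174255509 on the minus strand. Its level was 43.5 and 34.4 CPM in control, 4.41 and 4.85 CPM at 3 days, 4.46 and 3.72 CPM at 6 days, and 34.4 and 39.7 CPM in MetaICM. These values rest on 416 to 731 read pairs in control but on 70 to 96 in the ICM libraries. The ICM libraries were far below the control and MetaICM libraries, which overlapped with each other. HMGB2 was 8.46-fold lower at 3 days (log2FC -3.08 ± 0.19, edgeR adjusted p = 1.80e-07) and 9.56-fold lower at 6 days (log2FC -3.26 ± 0.18, edgeR adjusted p = 4.55e-07). MetaICM stood 9.07-fold above 6 days (log2FC 3.18 ± 0.13, edgeR adjusted p = 1.65e-14). The difference of MetaICM from control was -0.079, with a 95% interval from -0.40 to 0.24.

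HMGB3, an X-linked HMGB gene best known from stem and progenitor cells, lies at chrX:150148980-150159248 on the plus strand. Its 2 control libraries had 14.0 and 10.1 CPM, the 3-day libraries 4.92 and 4.38 CPM, the 6-day libraries 4.40 and 3.83 CPM and the MetaICM libraries 13.4 and 15.5 CPM. The ordering was that of HMGB2, with all ICM libraries lowest and MetaICM overlapping control. It fell with a log2FC of -1.37 ± 0.23 at 3 days (edgeR adjusted p = 8.55e-04) and -1.56 ± 0.22 at 6 days (edgeR adjusted p = 2.83e-04). From 6 days to MetaICM it was 1.81 ± 0.16 higher on the log2 scale (edgeR adjusted p = 3.50e-09). HMGB4, the remaining HMGB gene and a testis gene, had at most 2 read pairs in any library and was not tested.

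The make-up of the HMGB RNA pool differed between conditions as well as its size. Summed per kilobase of exon, the 3 HMGB genes gave 48.0 and 40.3 RPKM in control, 13.5 and 12.6 RPKM at 3 days, 12.6 and 12.5 RPKM at 6 days and 40.6 and 47.3 RPKM in MetaICM. HMGB2 was 57.8% and 54.5% of that sum in control, 20.8% and 24.6% at 3 days, 22.5% and 19.1% at 6 days, and 54.1% and 53.6% in MetaICM. The HMGB1 level was thus 0.60 and 0.72 times that of HMGB2 in control and 2.69 to 3.83 times that of HMGB2 in the 4 ICM libraries. This ratio depends on the exon lengths used, 6914 bases for HMGB1 and 1567 bases for HMGB2 with all annotated exons merged. Pairs mapping to several places were not counted, which can lower the level of either gene. The ratio was not tested further, and with 2 libraries per condition its spread is known only roughly.

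HMGA1 and HMGA2, which encode architectural proteins also tied to the heterochromatin foci of senescent cells, differed from each other. HMGA1 at chr6:34204650-34214008 had 146 and 97.9 CPM in control, 153 and 152 CPM at 3 days, 114 and 128 CPM at 6 days, and 224 and 236 CPM in MetaICM. Control replicate 2 was the lowest library and control replicate 1 lay among the ICM libraries, so that the control spread, with an SD of 34.1 CPM around a mean of 122 CPM, was the widest of the 4 conditions. MetaICM was above every other library. HMGA1 was higher in MetaICM than in control (log2FC 0.91 ± 0.16, edgeR adjusted p = 0.00379) and than at 6 days (0.92 ± 0.076, edgeR adjusted p = 1.61e-09), which are 1.87-fold and 1.90-fold. Against control it was not called at 3 days (log2FC 0.32, 95% interval -0.040 to 0.68) or at 6 days (-0.017, 95% interval -0.39 to 0.35). Without control replicate 1, the 3-day log2FC was 0.64, past the fold threshold of 0.6, and the 6-day value was 0.30. Leaving out control replicate 2 instead gave 0.042 at 3 days and -0.27 at 6 days. The MetaICM value against control ran from 0.65, with control replicate 2 left out, to 1.23, with control replicate 1 left out.

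HMGA2, a fetal and stem-cell gene expressed in these fetal fibroblasts, spans 141.8 kb at chr12:66218240-66360071 on the plus strand. It had 145 and 137 CPM in control, 26.4 and 33.0 CPM at 3 days, 32.6 and 36.9 CPM at 6 days and 118 and 114 CPM in MetaICM. All ICM libraries were far below the control and MetaICM libraries, and MetaICM lay below control without overlap. The gene was 4.79-fold lower at 3 days (log2FC -2.26 ± 0.14, edgeR adjusted p = 2.76e-07) and 4.07-fold lower at 6 days (-2.03 ± 0.12, edgeR adjusted p = 6.76e-07). In MetaICM it was 3.34-fold higher than at 6 days (log2FC 1.74 ± 0.081, edgeR adjusted p = 1.24e-13). Its log2FC of -0.29 against control did not pass the test (edgeR adjusted p = 0.0651). The ratio of HMGA1 to HMGA2 RPKM was 2.62 and 1.86 in control, 15.1 and 12.0 at 3 days, 9.08 and 9.06 at 6 days, and 4.94 and 5.37 in MetaICM. Each ICM library and each MetaICM library was above both control libraries in this ratio.

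**Figure D2:**
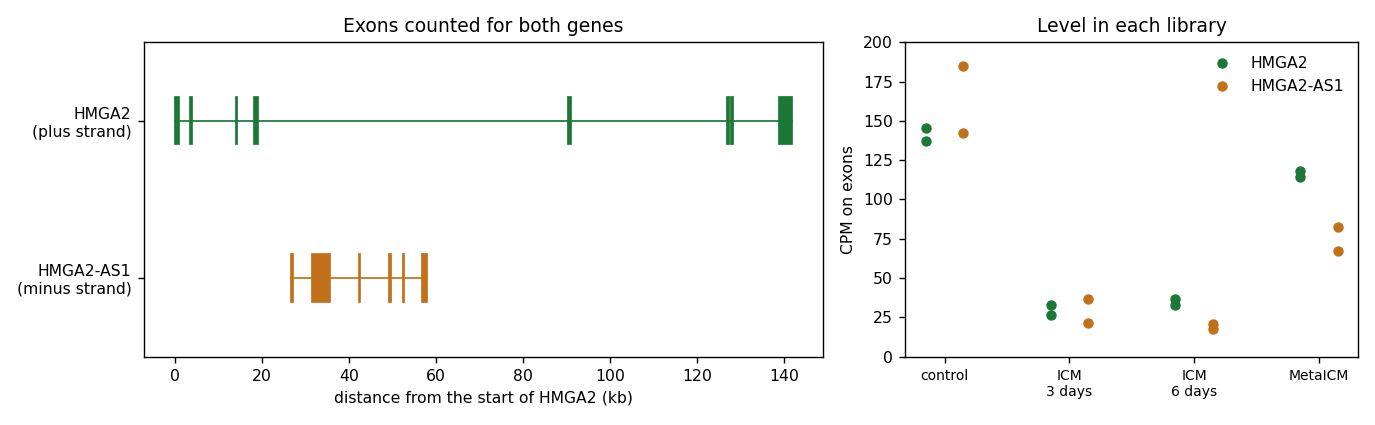
Left, exon blocks of HMGA2 and HMGA2-AS1 by distance from the start of HMGA2 in kb (blocks under 0.35 kb are drawn at that width). Right, their CPM on exons in each library (points). HMGA2-AS1 lies inside the gap between the 4th and 5th exon blocks of HMGA2, and its MetaICM libraries, at 82.3 and 67.3 CPM, sit below its control libraries, at 185 and 142 CPM.

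HMGA2-AS1, an antisense gene with 7 exon blocks over 6304 bases, lies on the minus strand wholly within an intron of HMGA2 and shares no exon base with it. Because pairs were counted without regard to strand, reads from HMGA2-AS1 and from that intron of HMGA2 cannot be told apart. HMGA2-AS1 had 185 and 142 CPM in control, 21.5 and 36.5 CPM at 3 days, 20.4 and 17.5 CPM at 6 days, and 82.3 and 67.3 CPM in MetaICM. It was highest in control, intermediate in MetaICM and lowest at 6 days, with no overlap between these groups. The log2FC against control was -2.51 ± 0.22 at 3 days (edgeR adjusted p = 3.61e-06) and -3.12 ± 0.16 at 6 days (edgeR adjusted p = 2.20e-07). MetaICM was lower than control (-1.13 ± 0.15, edgeR adjusted p = 7.92e-04) while being higher than 6 days (1.98 ± 0.10, edgeR adjusted p = 7.93e-13). Between 6 and 3 days the log2FC was -0.60 (edgeR adjusted p = 0.0211) and just short of the fold threshold. It became -0.95 and was called without 3-day replicate 1, -0.71 and called without 6-day replicate 1, and -0.19 without 3-day replicate 2. The ratio of HMGA2 to HMGA2-AS1 CPM was 0.79 and 0.96 in control, 1.23 and 0.90 at 3 days, 1.6 and 2.11 at 6 days, and 1.43 and 1.70 in MetaICM, and whether the 2 genes differ in response was not tested.

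The HMGN genes, whose proteins bind nucleosomes and loosen compact chromatin, did not move as a group. HMGN2 at chr1:26798931-26803133 had 55.9 and 50.6 CPM in control, 29.7 and 26.2 CPM at 3 days, 36.6 and 39.6 CPM at 6 days and 54.4 and 60.6 CPM in MetaICM. The 3-day libraries were lowest, the 6-day libraries lay between them and control without overlap, and MetaICM overlapped control. HMGN2 fell at 3 days (log2FC -0.93 ± 0.14, edgeR adjusted p = 4.58e-04). At 6 days its log2FC was -0.49 ± 0.12 (edgeR adjusted p = 0.00961), under the fold threshold, and the 6-day level differed from the 3-day level by 0.44 (95% interval 0.20 to 0.67). From 6 days to MetaICM the log2FC was 0.595 (edgeR adjusted p = 4.42e-06), just under the threshold. With 1 library left out it ran from 0.52, without MetaICM replicate 2, to 0.68, without MetaICM replicate 1.

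HMGN3, which has been linked to hormone and insulin secretion in other tissues, lies at chr6:79910962-79944399 on the minus strand and ran in the opposite direction. It had 7.37 and 9.93 CPM in control, 12.5 and 12.0 CPM at 3 days, 16.8 and 16.4 CPM at 6 days and 13.0 and 12.6 CPM in MetaICM, on 120 to 312 read pairs. All ICM and MetaICM libraries were above control, and the 6-day libraries were the highest. HMGN3 rose at 6 days (log2FC 0.95 ± 0.18, edgeR adjusted p = 0.00220). Neither the 3-day value (0.51, edgeR adjusted p = 0.0867) nor the MetaICM value against control (0.57, edgeR adjusted p = 0.0404) reached the call. Leaving out control replicate 2 moved them to 0.71 and 0.79, both past the fold threshold. Leaving out control replicate 1 moved them to 0.30 and 0.36. The 6-day level differed from the 3-day level by 0.43 (95% interval 0.14 to 0.71), and MetaICM from 6 days by -0.37 (95% interval -0.61 to -0.14). HMGN3 shares 137 exon bases with HMGN3-AS1 on the opposite strand, which had 20 to 52 read pairs per library and was not called in any comparison.

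HMGN1 at chr21:40714241-40721014 had 40.9 and 42.6 CPM in control, 40.6 and 39.4 CPM at 3 days, 36.7 and 37.1 CPM at 6 days and 55.0 and 64.3 CPM in MetaICM. The MetaICM libraries were above all others, and the 6-day libraries lay just below all others. They were higher than at 6 days (log2FC 0.69 ± 0.087, edgeR adjusted p = 8.30e-07), a call lost at 0.58 without MetaICM replicate 2. Against control the MetaICM log2FC was 0.51 (edgeR adjusted p = 0.0134), short of the fold threshold. It was 0.65 without MetaICM replicate 1 and 0.41 without MetaICM replicate 2.

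HMGN4, a retrogene-derived member, gave the flattest profile, with 22.2 to 25.6 CPM over all 8 libraries. Its log2FC lay between -0.024 and 0.0067 over the 5 comparisons, and the 95% interval of the 6-day difference from control ran from -0.31 to 0.33. HMGN5, an X-linked HMGN gene with a long acidic tail, had 11 to 31 read pairs per library, or 0.89 to 1.89 CPM. At that depth no difference was detectable, and the 95% interval of its log2FC at 3 days ran from -0.65 to 1.33. The pseudogenes HMGN2P46, HMGB3P1 and HMGA1P7 had 0 to 6 read pairs per library, and reads that map to several places were not counted, so members with near-identical copies elsewhere in the genome may be under-counted.

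**Figure D3:**
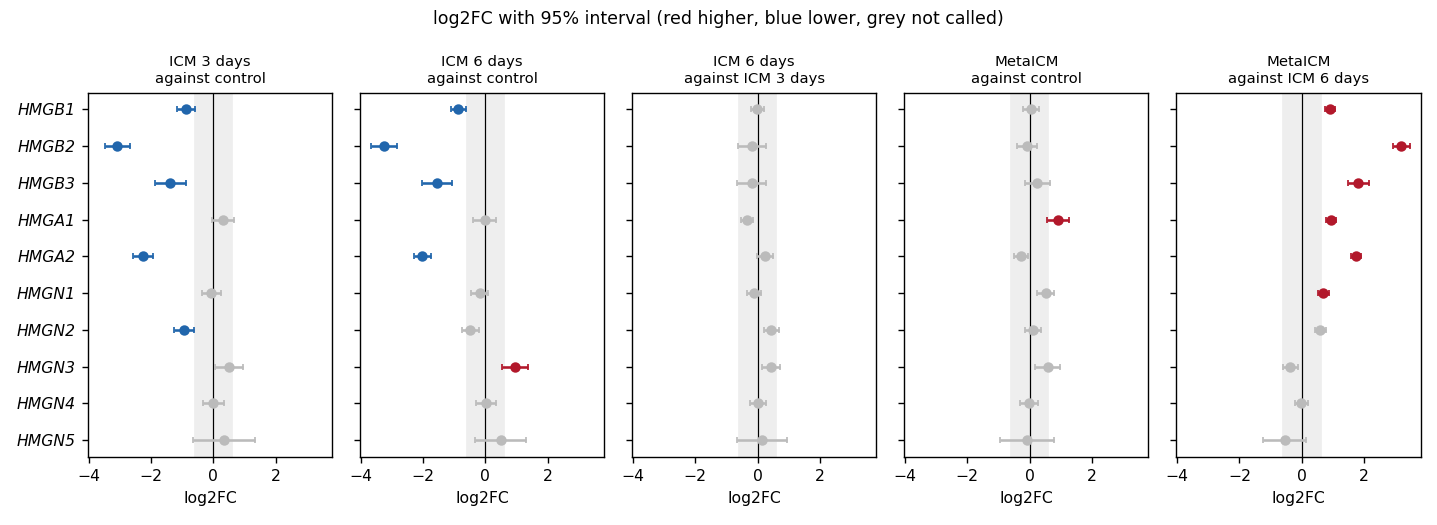
log2FC (horizontal axis) of the 10 HMG genes in the 5 comparisons (panels), with points for the edgeR estimate and bars for its 95% interval. Grey bands span the fold threshold of -0.6 to 0.6, blue marks genes called lower, red marks genes called higher and grey marks genes not called. The 3 HMGB genes and HMGA2 are blue at 3 and 6 days and red in MetaICM against 6 days, and no gene is called between 6 and 3 days.

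Per kilobase of exon, the order of the 10 genes differed between control and ICM. The order depends on the merged exon length of each gene, and pairs mapping to several places were not counted. In control the mean levels were 52.4 RPKM for HMGA1, 32.9 for HMGN1, 27.4 for HMGN2, 24.9 for HMGB2, 23.3 for HMGA2, 16.2 for HMGB1, 12.2 for HMGN4, 6.12 for HMGN3, 3.12 for HMGB3 and 0.50 for HMGN5. The libraries of HMGN2, HMGB2 and HMGA2 overlapped between neighbours in this order, and the other neighbours did not overlap. HMGA1, HMGN1 and HMGN2 kept the first 3 places in every condition. HMGB2 was at place 4 in control and MetaICM and at place 8 at both ICM times, with 2.96 RPKM at 3 days and 2.61 RPKM at 6 days. HMGA2 went from place 5 to place 7, with 4.90 and 5.74 RPKM. HMGN3 stood at place 8 in control and at place 5 at 6 days, where its 11.7 RPKM overlapped the 12.3 RPKM of HMGN4 above it and lay clear of the 8.87 RPKM of HMGB1 below it.

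**Figure D4:**
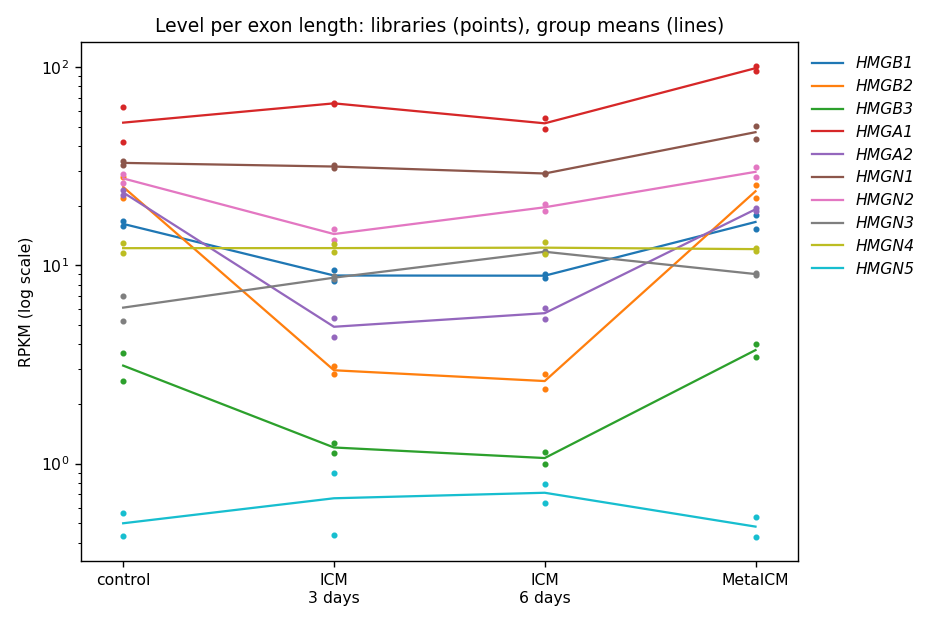
RPKM (vertical axis, log scale) of the 10 HMG genes in the 4 conditions (horizontal axis), with points for libraries and lines joining group means. HMGB2 and HMGA2 start at 24.9 and 23.3 RPKM in control, drop below HMGN4 and HMGN3 at 3 and 6 days and stand at 23.6 and 19.2 RPKM in MetaICM.

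Genes with a profile most like that of 4 members were sought among 11166 genes with a mean of at least 5 CPM, by the root mean squared difference of gene-centred log2(CPM + 0.5) over the 8 libraries. These are descriptions over libraries that share their depth and conditions. For HMGB1 the nearest were SORBS3 (0.083), YARS1 (0.092), NIN (0.094) and ALDH7A1 (0.098). The centrosomal gene NIN, for example, had mean levels of 178 CPM in control, 95.7 CPM at 3 days, 94.4 CPM at 6 days and 190.2 CPM in MetaICM. For HMGB2 they were the histone gene H2BC18 (0.15), FAM83D (0.16), TAGLN (0.17) and the histone gene H2AC8 (0.17). TAGLN, an actin-binding gene of contractile cells, had 460.2, 65.5, 52.6 and 482 CPM in the same order of conditions. For HMGA1 the nearest were NIBAN2 (0.085), SLC9A3R2 (0.096), MZT2B (0.10) and TSPAN17 (0.11), and NIBAN2 had 306, 398, 330.0 and 555 CPM. For HMGA2 they were POLA1 (0.12), which encodes the catalytic subunit of DNA polymerase alpha, CCNA2 (0.13), which encodes cyclin A2, SLC1A4 (0.14) and the histone gene H2BC15 (0.14). CCNA2 had 58.6, 11.3, 12.7 and 41.5 CPM.

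Other genes of HMG biology were counted from lists chosen by function, with earlier results of these data known, so their counts are descriptions. The linker histones, which compete with HMGB and HMGN proteins for nucleosomes, included 4 of 7 genes called lower at 3 days (13.2% of all genes), 4 at 6 days (17.2%), and 4 called higher in MetaICM than at 6 days (15.7%). H1-5 had mean levels of 104 CPM in control, 7.83 CPM at 3 days, 2.80 CPM at 6 days and 86.3 CPM in MetaICM, with a log2FC of -5.22 ± 0.16 at 6 days (edgeR adjusted p = 2.74e-08). H1-3 had 54.2, 3.47, 2.59 and 41.0 CPM in the same order. H1-4 and H1-1 were the other linker histones called lower, with log2FC of -2.70 and -2.26 at 6 days. Between 6 and 3 days, H1-5 (log2FC -1.48) and H1-4 (-0.93) were called lower, beside 4.54% of all genes, while no HMG member was called. The median log2FC of the list was -1.55 at 3 days and -2.26 at 6 days.

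Among 27 tested genes of the 29 with other HMG boxes, 7 were called lower and 1 higher at 3 days, beside 13.2% and 8.85% of all genes. At 6 days 11 were lower and 1 higher, beside 17.2% and 13.3%, and in MetaICM against 6 days 11 were higher and 1 lower, beside 15.7% and 12.0%. The median log2FC of this list was -0.19 at 3 days and -0.44 at 6 days. SOX11, a transcription factor of developing tissues, had 21.2 CPM in control, 5.40 CPM at 3 days, 2.94 CPM at 6 days and 18.2 CPM in MetaICM (log2FC -2.85 ± 0.18 at 6 days, edgeR adjusted p = 1.03e-06). NSD2, a histone H3 lysine methyltransferase that carries an HMG box, had 214, 59.6, 51.2 and 163 CPM. SOX4 had 102 CPM in control, 111 CPM at 3 days and 38.0 CPM at 6 days. Between 6 and 3 days, 3 of the 27 genes were called lower and 0 higher, beside 4.54% and 3.53% of all genes. These were SOX4 (log2FC -1.56 ± 0.097, edgeR adjusted p = 1.73e-09), SOX11 (-0.87) and SOX12 (-0.68). The calls of SOX11 and SOX12 were lost at an adjusted p cut-off of 0.01, and that of SOX12 also with DESeq2.

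Of 17 receptors, adaptors and binding partners of extracellular HMGB1, only 8 passed the filter on low counts. At 3 days 2 of the 8 were lower, CXCL12 (log2FC -1.66) and AGER (-0.75), beside 13.2% of all genes. At 6 days CXCL12 (-1.57) and AGER (-0.77) were lower and LY96 (1.05) and IRAK4 (0.87) were higher, so 2 of 8 in each direction, beside 17.2% and 13.3% of all genes. CXCL12, the chemokine that forms a complex with HMGB1, had mean levels of 5.95 CPM in control, 1.86 CPM at 3 days, 1.98 CPM at 6 days and 3.32 CPM in MetaICM. AGER, the receptor RAGE, had 7.42, 4.43, 4.38 and 6.00 CPM. Its adjusted p at 3 days rose to 0.0603 without control replicate 1, 0.138 without 3-day replicate 1 and 0.112 without 3-day replicate 2 by edgeR, and was 0.0688 by DESeq2, and its log2FC at 6 days was -0.59 and not called without 6-day replicate 2. LY96, the TLR4 co-receptor, had 3.66, 5.10, 7.56 and 3.76 CPM. In MetaICM against 6 days, 2 were lower, LY96 (-1.01) and IRAK4 (-0.81), beside 12.0% of all genes. Another 2 were higher, IRAK1 (0.74) and CXCL12 (0.76), beside 15.7% of all genes. The CXCL12 call was lost at 0.41 without 6-day replicate 2 and at 0.33 without MetaICM replicate 2, and also with DESeq2 (adjusted p = 0.142).

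Of 11 enzymes and carriers that export or modify HMGB1, 2, PARP1 and KAT2B, were called lower at 3 days, beside 13.2% of all genes, with log2FC of -1.05 ± 0.15 (edgeR adjusted p = 3.04e-04) and -1.07 ± 0.22 (edgeR adjusted p = 0.00329). PARP1, which adds poly(ADP-ribose) to HMGB1, had mean levels of 140 CPM in control, 67.7 CPM at 3 days, 72.1 CPM at 6 days and 162 CPM in MetaICM. In MetaICM against 6 days, 2 of the 11, PARP1 (1.17) and KAT2B (0.78), were called higher, beside 15.7% of all genes. PARP1 was also lower at 6 days (-0.96). The other gene called lower at 6 days, where 17.2% of all genes were, was the deacetylase SIRT1 (-0.66), a call lost at -0.53 without control replicate 2 and at an edgeR adjusted p of 0.0567 without 6-day replicate 2. In MetaICM against control, the acetyltransferase genes EP300 (-0.74) and CREBBP (-0.63) were called lower, beside 8.99% of all genes. Without control replicate 2 they stood at -0.48 and -0.51 and were not called, and both calls were also lost without MetaICM replicate 2 (edgeR adjusted p = 0.0671 and 0.0693), that of CREBBP also without MetaICM replicate 1 (0.0625). In the SET complex, to which HMGB2 belongs, 1 of 4 tested genes, ANP32A, was called lower at 3 days (-0.63), beside 13.2% of all genes, a call lost with library totals (-0.56) and without control replicate 1 (-0.44), 3-day replicate 1 (adjusted p = 0.0877) or 3-day replicate 2 (adjusted p = 0.0898), all by edgeR. Around HMGA2, 5 of 8 genes of let-7 control and IGF2BP binding were tested, and 1, IGF2BP1, was called lower at 6 days (-0.67), beside 17.2% of all genes, a call lost at -0.51 without control replicate 2 and at -0.59 without 6-day replicate 1.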

How the data were processed

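Factory RNA-seq was performed on 8 libraries from IMR90 cells, 2 per condition. Per the file headers, the deposited counts are read pairs on the exons of each RefSeq gene from featureCounts (version 1.6.3), not normalized, counted without strand, with both ends mapped, and without pairs on several places or genes. Per the labels, poly(A)+ RNA was selected, and STAR (version 2.6.0c) and GRCh37 are named in the submitters' processing notes. Exonic counts of nascent RNA also hold mature transcripts, and intronic counts were not analysed here.

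Genes were fitted 4 libraries at a time with edgeR (version 4.0.16, R 4.3.3) using TMM factors, after low genes were removed by filterByExpr (minimum count 10), and tested by quasi-likelihood with Benjamini-Hochberg adjustment over all genes tested. Groups came from the sample titles, and 5 comparisons were made. The fit was tested on simulated data with 200 changed genes per comparison. Recovery ran from 92% between 6 and 3 days to 96.5% at 3 days. False calls numbered from 2 in MetaICM against 6 days to 21 at 3 days. Every real comparison had more genes called than 200, a setting that the simulation did not check. The alternatives were DESeq2 (version 1.42.0), other scalings, filters and an adjusted p cut-off of 0.01, a single fit of the 8 libraries, a replicate block, and each library left out in turn. Named genes are the 10 members, their antisense genes and pseudogenes, up to 4 called genes per list and comparison with the largest absolute log2FC and at least 10 counts in each library of the higher group, and the 4 genes most like each of HMGB1, HMGB2, HMGA1 and HMGA2. The members and the 11 lists, with 111 entries, were chosen with earlier results of these data known.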

Additional observations from a re-analysis of the deposited data

Results flagged for a closer look

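Between 6 and 3 days of ICM, 3 of the 10 HMG genes differed at an edgeR adjusted p-value under 0.05, none by more than the fold threshold, where 19.3% of all genes tested passed that p cut-off. HMGA1 was lower at 6 days by a log2FC of -0.34 ± 0.091 (edgeR adjusted p = 0.0127), in both 6-day libraries against both 3-day libraries. HMGN2 was higher at 6 days by 0.44 ± 0.11 (edgeR adjusted p = 0.00949) and HMGN3 by 0.43 ± 0.14 (edgeR adjusted p = 0.0328), again without overlap of libraries. Over the alternatives, the log2FC ran from -0.43 to -0.24 for HMGA1, from 0.35 to 0.54 for HMGN2 and from 0.39 to 0.47 for HMGN3, with adjusted p-values up to 0.303, 0.129 and 0.194.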

How the results depend on the processing

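The genes called among the 10 HMG members numbered 5 at 3 days, 5 at 6 days, 0 between 6 and 3 days, 1 in MetaICM against control and 6 in MetaICM against 6 days, and these counts moved by over 1.5 times only in MetaICM against control. There 2 were called with all genes with a count (HMGN3 added, log2FC 0.60). HMGN3 in that comparison rose to 0.79 when control replicate 2 was left out, and HMGN1 to 0.65 when MetaICM replicate 1 was. At 3 days, HMGA1 stood at 0.64 with control replicate 1 left out, and HMGN3 at 0.71 with control replicate 2 left out. Each of these values was past the fold threshold. Of 780 refits of the members and their antisense genes, 728 kept direction and side of the threshold, 1 lost its call, 12 gained one and 39 turned direction, none of the last for a called gene. Of 663 alternative values of the called genes named from other lists, with the same cut-off included, 621 kept their call, 42 lost it and 0 turned direction.

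Other scalings, filters and tools turned the following log2FC values, each close to 0 and with the cause not tested. At 3 days, HMGN1 was 0.012 with library totals, and HMGN4 was -0.0060 with DESeq2's size factors, -0.0069 with DESeq2 and -0.0023 with at least 10 counts in every library. HMGA1 at 6 days against control was 0.031 with library totals and 0.0087 with all genes with a count. Between 6 and 3 days, HMGB1 was 0.0013 with upper-quartile factors, and HMGN4 was 0.0012 with DESeq2's size factors, 0.0099 with upper-quartile factors, 0.0025 with DESeq2, 0.0060 with all genes with a count and 0.0041 with 8 libraries in one fit. HMGN4 in MetaICM against control was 0.0077 with library totals and 0.013 with all genes with a count.

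Leaving out 1 library moved HMGN4 from -0.082 to 0.084 at 3 days, -0.095 to 0.11 at 6 days, -0.093 to 0.098 between 6 and 3 days, -0.095 to 0.068 in MetaICM against control and -0.12 to 0.076 against 6 days. HMGN5 ran from -0.19 to 0.81 at 3 days, -0.33 to 0.69 between 6 and 3 days and -0.24 to 0.16 in MetaICM against control. HMGA1 ran from -0.27 to 0.30 at 6 days, HMGB1 from -0.10 to 0.089 between 6 and 3 days and -0.082 to 0.17 in MetaICM against control, and HMGB2 from -0.23 to 0.11 in MetaICM against control. Where this left 1 library in a group, it was assumed to vary like the other group.

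Whether replicate numbers pair the libraries could not be settled, since a group of 2 libraries gives only 1 independent set of deviations. Deviations of same-numbered libraries correlated at 0.23 (control and 3 days), 0.066 (control and 6 days), 0.11 (3 and 6 days), -0.040 (control and MetaICM), -0.13 (3 days and MetaICM) and 0.035 (6 days and MetaICM). With the replicate block, the calls numbered 5, 5, 0, 1 and 6 as before, HMGA1 at 6 days was 0.0070 and HMGN4 between 6 and 3 days was 0.0030. With 2 libraries per group and 11 to 31 read pairs, differences of HMGN5 are limited by depth.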
